A study of Mus musculus with 12 samples.

Results

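Peroxisomal genes were followed in Leydig cells, which make testosterone between the seminiferous tubules of the testis, of adult male C57BL/6J mice. The set comprised 39 genes for peroxisome assembly, peroxisome division, membrane transport and peroxisomal lipid oxidation, taken as every non-control probe of the array whose gene name, or an older symbol of it, was on the list. Of these 39 genes, 34 gave a signal above background and were tested among 15830 genes in all, and 27670 genes had a probe. DEHP mice, numbered 1 and 4, received the plasticiser di-(2-ethylhexyl) phthalate in corn oil by gavage at 200 mg per kg per day for 21 days. Vehicle mice, numbered 1, 2 and 4, received corn oil alone, and both groups were 21 weeks old; the labels name no engineered allele. The labels speak of 4 mice per group, of which 2 DEHP and 3 vehicle mice are analysed here. Leydig cells were cut by laser from frozen sections of the right testis, and RNA from single caps, each of a separate mouse, was amplified for 2 rounds. Every DEHP mouse was hybridised against every vehicle mouse in both dye orientations on 2-colour Agilent arrays, 12 arrays in all, so that the 5 mice and not the 12 arrays are the replicates of the groups.

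Peroxisomes are small organelles bounded by a single membrane. Peroxins (Pex proteins) build them: some place membrane proteins, others recognise matrix enzymes in the cytosol and carry them across the membrane, and the Pex11 proteins take part in division. Inside, very long and branched acyl chains, bile acid precursors and other poorly soluble lipids are shortened by beta-oxidation after activation to coenzyme A esters, phytanic acid first loses a carbon by alpha-oxidation, catalase removes the hydrogen peroxide that forms, and the first steps of ether lipid synthesis take place. In rodent liver, phthalate monoesters activate the nuclear receptor PPAR alpha, which induces beta-oxidation enzymes and Pex11a and is followed by peroxisome proliferation. Leydig cells are known for abundant peroxisomes and for the sterol carrier encoded by Scp2.

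The array carried 60-base probes, and probes of the same member were not all read. Of 14 members with several probes on the same strand, 12 had at least 1 probe above background, and in 8 of these only some probes were. In 7 of the 8, the probe nearest the 3′ end was among those above background, Pex13 being the exception. The order was not strict, since for Pex3 the probe 4530 bases upstream was not above background while the one 10100 bases upstream was. Distances are along the genome, and a relation between position and signal was not tested. Probes of Abcd3, the transporter of branched and very long acyl chains, and of Acaa1a, a thiolase of the last beta-oxidation step, are shown because in each only the probe nearest the 3′ end was read. Another Acaa1a probe, 785 bases upstream, was also not well above background and is not shown. Probes whose genomic span crosses an intron are given whole and the others by their last 30 bases, with positions on mouse assembly mm7.
Abcd3, nearest the 3′ end, above background, chr3:121527762-121527821, minus strand: ttccataaatgcatcacattcagttttacc
Abcd3, 13350 bases upstream in the genome, not well above background, chr3:121541112-121542793, minus strand: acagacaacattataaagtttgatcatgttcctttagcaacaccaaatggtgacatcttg
Abcd3, 15084 bases upstream, not well above background, chr3:121542846-121542985, minus strand: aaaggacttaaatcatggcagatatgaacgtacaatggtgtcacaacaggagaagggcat
Acaa1a, nearest the 3′ end, above background, chr9:119030443-119030499, plus strand: gggatgcagtaaatgtgtactgtctcagtt
Acaa1a, 2550 bases upstream, not well above background, chr9:119026729-119027949, plus strand: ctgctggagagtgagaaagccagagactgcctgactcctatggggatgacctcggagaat

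Slc25a17, the carrier of coenzyme A and other cofactors across the peroxisomal membrane, shows the same order with 3 probes. Its probe nearest the 3′ end holds the polyadenylation hexamer AATAAA, in capitals. This hexamer or ATTAAA occurred in 6.56% of member probes, against 7.49% of all probes. The probe with the hexamer and the next were above background, while the probe farthest upstream was not.
Slc25a17, nearest the 3′ end, chr15:81403416-81403475, minus strand: aagctccaatcacataagcctcAATAAAtt
Slc25a17, 214 bases upstream, chr15:81403630-81403689, minus strand: catgactttgtttccatctgactcttttcc
Slc25a17, 4727 bases upstream, chr15:81408143-81411550, minus strand: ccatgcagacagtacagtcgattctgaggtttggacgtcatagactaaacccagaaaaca

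The 5 members without a signal well above background were Pex2, a ubiquitin ligase subunit of the import machinery, Abcd2, an acyl transporter, Acox2, an oxidase of branched chains and bile acid precursors, and the acyl-CoA thioesterases Acot3 and Acot4. Acot3 and Acot4 were well above background on none of the arrays, and no fold is given for any of the 5. Whether these transcripts were low in the cells or out of reach of the probes after amplification was not tested. A further probe is named Pex2 in the files, but its accession belongs to Pex5l, a relative of the import receptor Pex5. It is counted here among the other peroxisomal genes and not as a member.

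Before the groups were compared, the captured material was checked against cell type markers. All 14 Leydig cell markers, Insl3, Star, Cyp11a1 and Cyp17a1 among them, were above background. So were all 18 spermatid markers, 13 of 14 spermatocyte markers, 14 of 14 Sertoli cell markers and 11 of 12 macrophage markers. Relative to the mean of the 5 mice, the median Leydig cell marker was at a log2 level of 0.68 in DEHP mouse 1 and -0.76 in DEHP mouse 4, against -0.55, 0.29 and 0.52 in vehicle mice 1, 2 and 4. The median spermatid marker was at 0.04 and 0.75 in the DEHP mice, against 0.25, -0.60 and -0.45 in the vehicle mice. DEHP mouse 4 and vehicle mouse 1 were thus the mice low in Leydig cell markers, and each had the highest spermatid marker level of its group. In material of this kind, fewer cells of a type and less RNA per cell cannot be told apart.

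Whether DEHP changed the peroxisomal genes was asked first. None of the 34 measured members passed the test, and neither did any other gene: at an adjusted p under 0.05 (limma, Benjamini-Hochberg over 15830 genes), 0 members and 0% of all genes were called. At an unadjusted p under 0.05, 0 members were found, against 0.859% of all genes. Both DEHP mice lay above all vehicle mice for 0 members, against 3.95% of all genes, and below all vehicle mice for 0 members, against 5.22% of all genes. In every measured member, the DEHP and vehicle mice overlapped. The DEHP minus vehicle difference lay above 0 for 14 members and below 0 for 20, where 51.7% of all genes lay below 0. The median difference was -0.12 on the log2 scale for the members and -0.01 for all genes, and the members ran from -0.68 to 0.35. This median rested on single mice: leaving out DEHP mouse 4 gave 0.04 and leaving out DEHP mouse 1 gave -0.26. Leaving out vehicle mouse 4 gave 0.01, while the fit that dropped vehicle mouse 1 gave -0.23 and the one that dropped number 2 gave -0.05. The arrays lay on 3 slides of 4 arrays, of which slides 1 and 2 held vehicle mice 1 and 2 and slide 3 held vehicle mouse 4 only. Fitted slide by slide, the members' median was 0.00, 0.02 and -0.29 in this order. Within slides 1 and 2, dye and group cannot be told apart.

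**Figure D1:**
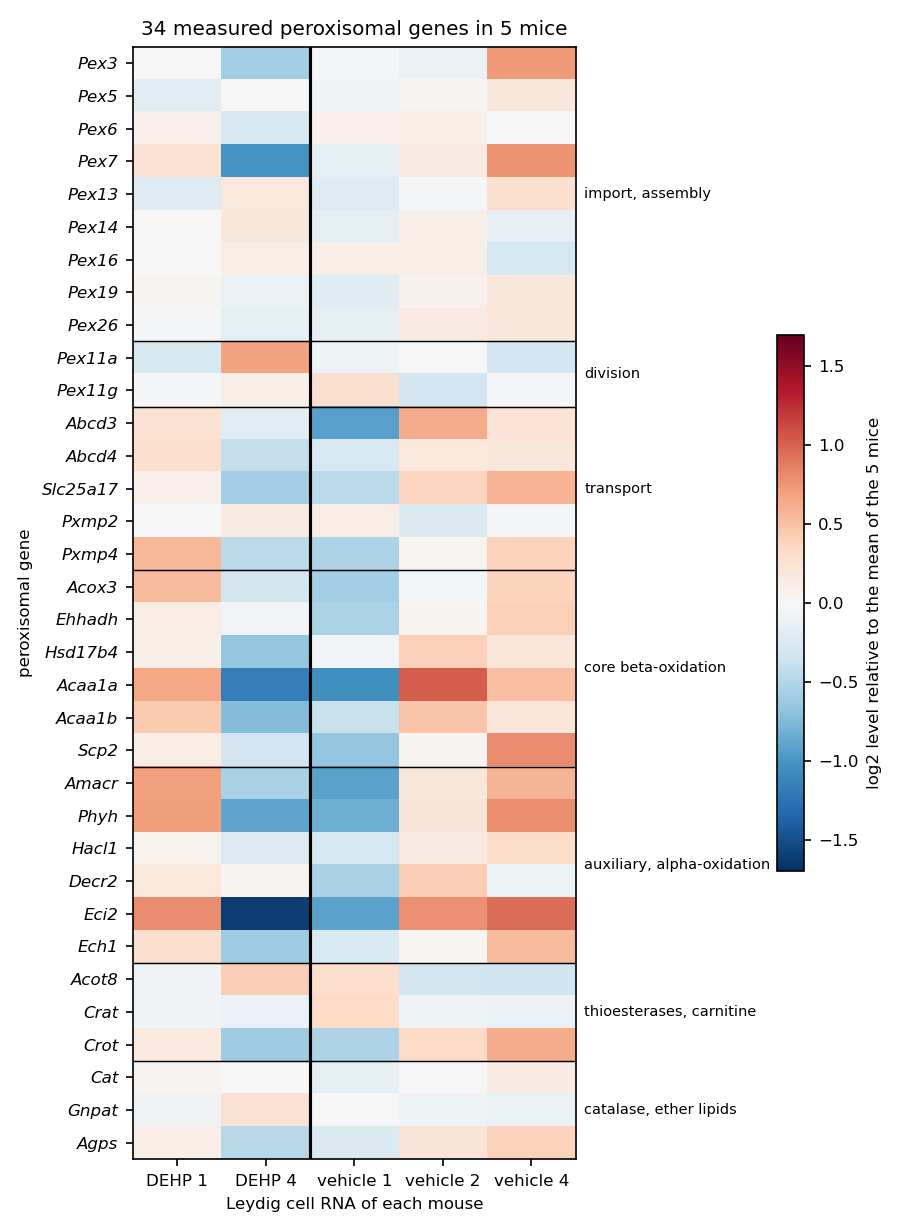
Colour gives the log2 level of each of the 34 measured peroxisomal genes (rows, grouped by role) in each of the 5 mice (columns, DEHP mice left of the line), relative to the mean of the 5 mice. Most genes of core beta-oxidation, auxiliary oxidation and transport are blue in DEHP mouse 4 and vehicle mouse 1, with Eci2 at -1.62 and -0.91 there.

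Genes that PPAR alpha ligands are known to induce in mouse liver did not share a direction. Pex11a, a division factor (chr7:75606703-75606762), was at -0.27 and 0.69 in DEHP mice 1 and 4, against -0.09, 0.00 and -0.32 in vehicle mice 1, 2 and 4. DEHP mouse 4 was the highest of all, while DEHP mouse 1 lay among the vehicle mice. The difference was 0.35 (95% interval -0.47 to 1.16), the highest of the 34. Ehhadh, the bifunctional enzyme of the inducible beta-oxidation route (chr16:21411280-21411339), was at 0.13 and -0.04 in the DEHP mice, against -0.54, 0.04 and 0.41 in the vehicle mice. Both DEHP values fell inside the vehicle range, and the difference was 0.07 (interval -0.72 to 0.86). Acaa1b, the thiolase best known for its induction in liver (chr9:118828412-118828471), was at 0.44 and -0.74 in the DEHP mice and at -0.38, 0.48 and 0.20 in the vehicle mice. DEHP mouse 4 lay below every vehicle mouse and DEHP mouse 1 within their range, with a difference of -0.25 (interval -1.33 to 0.83). Acaa1a and Acaa1b are close relatives, and signal shared between them by cross-hybridisation was not tested. Cat, the catalase gene, had a narrow range with loess and a normexp offset of 50, with 0.04 and -0.01 in the DEHP mice and -0.17, -0.01 and 0.14 in the vehicle mice. Its difference was 0.03 (interval -0.46 to 0.52). The intervals of Pex11a and Acaa1b reach past 1 on the log2 scale, so the absence of a call does not show equal levels.

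**Figure D2:**
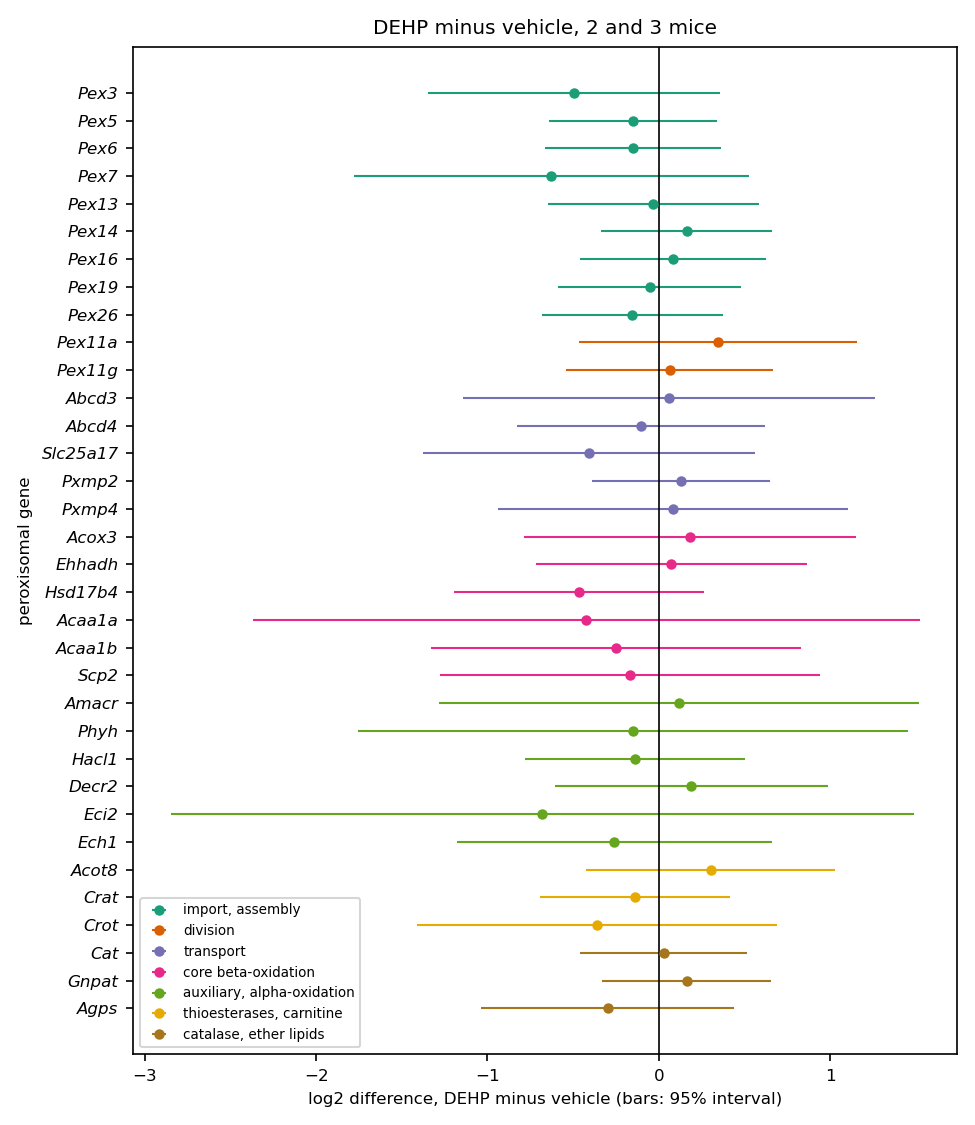
Points give the log2 difference between the means of 2 DEHP and 3 vehicle mice for each measured peroxisomal gene, coloured by role, and bars give its 95% interval. Every interval includes 0, from Eci2 at -0.68 to Pex11a at 0.35.

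Among the 9 measured genes of matrix protein import and membrane assembly, the difference was below 0 for 7, with a median of -0.15. Leaving out DEHP mouse 1 gave a median of -0.13, and leaving out DEHP mouse 4 gave 0.01. Each gene stands by its brightest probe. A dimmer probe above background gave -0.13 for Pex3, 0.24 for Pex13, 0.36 for Pex16 and 0.10 for Pex19. For Pex13 and Pex19 the sign thus depended on the probe. Pex3, which anchors the carrier of newly made membrane proteins (chr10:13225011-13225070), was at 0.00 and -0.59 in the DEHP mice, against -0.02, -0.11 and 0.72 in the vehicle mice. Only vehicle mouse 4 stood clear above the rest, and the difference was -0.49 (interval -1.35 to 0.36). Pex7, the receptor for enzymes with the N-terminal targeting signal, including alkylglycerone phosphate synthase and phytanoyl-CoA hydroxylase (chr10:19585449-19585507), was at 0.26 and -1.02 in the DEHP mice, against -0.17, 0.15 and 0.77 in the vehicle mice. DEHP mouse 4 was lowest and vehicle mouse 4 highest, and the difference was -0.63 (interval -1.78 to 0.53). Pex13 and Pex14, subunits of the docking complex, moved over a narrower range. Pex13 was at -0.21 and 0.18 in the DEHP mice and at -0.22, -0.02 and 0.28 in the vehicle mice, a difference of -0.03. Pex14 was at 0.01 and 0.19 in the DEHP mice and at -0.16, 0.10 and -0.14 in the vehicle mice, a difference of 0.16. Both Pex14 values in DEHP mice lay within or just above the vehicle range. Pex16, which helps to form the peroxisomal membrane, was at -0.01 and 0.11 in the DEHP mice and at 0.10, 0.10 and -0.30 in the vehicle mice. The remaining members, Pex5, Pex6, Pex19 and Pex26, had differences between -0.15 and -0.05. Pex26 was the dimmest of the 9, and its difference was -0.78 with Agilent's processed signals. Pex19 carries new membrane proteins, Pex5 is the receptor of the C-terminal targeting signal, and Pex6, held at the membrane by Pex26, is an ATPase that recycles it.

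Of the division genes besides Pex11a, Pex11g, listed as Pex11c in the files, was at -0.03 and 0.10 in the DEHP mice and at 0.28, -0.32 and -0.03 in the vehicle mice, a difference of 0.06. Its 4 probes gave differences between 0.02 and 0.37, and 1 of the 4 runs on the strand opposite to the others.

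Membrane transport genes had 3 differences above 0 and 2 below, with a median of 0.06. Averaging all probes above background gave a median of -0.10. Leaving out DEHP mouse 1 gave -0.43, and leaving out DEHP mouse 4 gave 0.24. Slc25a17 was at 0.09 and -0.58 in the DEHP mice, against -0.46, 0.36 and 0.58 in the vehicle mice. The lowest values belonged to DEHP mouse 4 and vehicle mouse 1, and the difference was -0.41 (interval -1.37 to 0.56). Its other probe above background gave -0.34. Abcd3 was at 0.26 and -0.19 in the DEHP mice, against -0.92, 0.62 and 0.23 in the vehicle mice. Vehicle mouse 1 and vehicle mouse 2 enclosed both DEHP mice, and the difference was 0.06 (interval -1.14 to 1.26). Pxmp4, a small membrane protein, was the member whose probes above background differed most, by 0.46 between 0.08 and -0.38. For Abcd4, a relative of Abcd3 known for cobalamin transport, the difference was -0.10, and for the channel-like protein Pxmp2 it was 0.13.

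In the core of beta-oxidation, 2 of 6 measured genes had a difference above 0 and 4 below, with a median of -0.21. The sign of this median hung on DEHP mouse 4, since dropping that animal turned the value to 0.25. With DEHP mouse 1 dropped instead, the median was -0.62. Among the vehicle mice, dropping number 4 brought the median to 0.00, number 1 to -0.51 and number 2 to -0.03. Hsd17b4, the bifunctional enzyme for branched chains and bile acid precursors, was at 0.09 and -0.65 in the DEHP mice, against -0.05, 0.40 and 0.21 in the vehicle mice. DEHP mouse 4 was below every vehicle mouse and DEHP mouse 1 was among them, with a difference of -0.46 (interval -1.20 to 0.27). Acaa1a was at 0.66 and -1.17 in the DEHP mice, against -1.04, 1.03 and 0.52 in the vehicle mice. Low and high mice stood in both groups, and the interval of its difference of -0.42 was correspondingly wide (-2.37 to 1.52). Scp2, whose longer product is the thiolase for branched chains, had a difference of -0.17, and Acox3, an oxidase of branched chains, one of 0.18.

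The auxiliary and alpha-oxidation genes held 3 of the 5 members with the widest range over the mice, the others being Acaa1a and Pex7. For this role the median difference of -0.15 moved to 0.39 once DEHP mouse 4 was dropped. With DEHP mouse 1 dropped instead, it moved to -0.61. Among the vehicle mice, dropping number 4 gave 0.08, number 1 gave -0.38 and number 2 gave -0.08. Eci2, an enoyl-CoA isomerase needed for unsaturated chains and listed as Peci in the files (chr13:34392997-34393056), was at 0.80 and -1.62 in the DEHP mice, against -0.91, 0.78 and 0.95 in the vehicle mice. Its range over the 5 mice, 2.57 on the log2 scale, was the widest of the 34, and the difference of -0.68 had an interval of -2.85 to 1.49. Phyh, the phytanoyl-CoA hydroxylase of alpha-oxidation (chr2:4855856-4855916), was at 0.71 and -0.89 in the DEHP mice, against -0.84, 0.22 and 0.80 in the vehicle mice. DEHP mouse 4 was the lowest of all and DEHP mouse 1 was exceeded only by vehicle mouse 4, and the difference was -0.15 (interval -1.75 to 1.46). Amacr, the racemase that readies branched chains for oxidation, Decr2, a reductase for unsaturated chains, Hacl1, the lyase of alpha-oxidation, and Ech1, a dienoyl-CoA isomerase, had differences of 0.12, 0.19, -0.14 and -0.26.

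Among the genes that release acyl groups or move them out, Acot8, a thioesterase with broad chain preference (chr2:164533514-164533573), was at -0.06 and 0.42 in the DEHP mice, against 0.29, -0.32 and -0.34 in the vehicle mice. DEHP mouse 4 and vehicle mouse 1 were the highest, and the difference was 0.30 (interval -0.43 to 1.03). Crat, carnitine acetyltransferase, was at -0.06 and -0.11 in the DEHP mice and at 0.34, -0.07 and -0.10 in the vehicle mice, where vehicle mouse 1 alone stood apart. Crot, the carnitine octanoyltransferase, had a difference of -0.36. Of the ether lipid genes, Gnpat, the acyltransferase of the first step, was at -0.06 and 0.25 in the DEHP mice and at 0.00, -0.08 and -0.11 in the vehicle mice, a difference of 0.16 (interval -0.33 to 0.66). Agps, which forms the ether bond, was at 0.11 and -0.47 in the DEHP mice and at -0.25, 0.22 and 0.39 in the vehicle mice, a difference of -0.30 (interval -1.04 to 0.44). The 2 ether lipid genes thus stood on opposite sides of 0, each within the spread between mice.

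A wider list of 50 other genes with peroxisomal products gave a like picture, with 36 measured, 16 differences above 0, 20 below and a median of -0.02. Both DEHP mice lay above all vehicle mice for 2 of these 36 genes, where 3.95% of all genes did so. Ide, a peptidase with a peroxisomal targeting signal, was at 0.34 and 0.46 in the DEHP mice, against 0.04, -0.09 and -0.76 in the vehicle mice. The difference was 0.67 with an adjusted p of 1.00 in limma's test over all genes. Trim37, a ubiquitin ligase that acts on Pex5, was at 0.23 and 0.16 in the DEHP mice, against 0.13, -0.39 and -0.13 in the vehicle mice. The lowest p among genes below 0 belonged to Tysnd1, the protease that trims imported enzymes, at a difference of -0.33, and to Nudt7, a coenzyme A hydrolase, at -0.36. Tysnd1 was at 0.31 and -0.71 in the DEHP mice, against -0.28, 0.60 and 0.08 in the vehicle mice. Nudt7 was at 0.37 and -0.81, against -0.40, 0.38 and 0.47.

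How the peroxisomal genes differed between mice of the same group was asked next, from the log ratios of the 12 arrays. This test compares RNA extracts and says nothing of treatment, and its standard errors, 0.03 to 0.14 on the log2 scale, cover only the repeated hybridisation of each mouse's RNA. The 2 DEHP mice were never on the same array and are compared through the vehicle mice. Between DEHP mouse 4 and DEHP mouse 1, 29 of 34 members passed an adjusted p of 0.05, 8 of them higher in mouse 4 and 21 lower, where 77.4% of all genes passed, 36.3% higher and 41.1% lower. Between vehicle mouse 1 and the mean of vehicle mice 2 and 4, 30 of 34 members passed, 5 higher in mouse 1 and 25 lower, where 72.1% of all genes passed, 33.9% higher and 38.2% lower. The share of members called was thus above that of all genes in both comparisons, a gap that was not tested. Lower calls outnumbered higher ones among the members more than among all genes. Between vehicle mouse 2 and vehicle mouse 4, 24 of 34 members passed, with 57.4% of all genes.

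Core, auxiliary and alpha-oxidation genes made up 11 of the 21 members lower in DEHP mouse 4 and 12 of the 25 lower in vehicle mouse 1. All 6 measured core beta-oxidation genes were lower in DEHP mouse 4 than in DEHP mouse 1, with a median difference of -0.79, and all 6 were lower in vehicle mouse 1 than in vehicle mice 2 and 4, with a median of -0.77. Of the 6 auxiliary and alpha-oxidation genes, 5 were lower in DEHP mouse 4 (median -1.07) and 6 were lower in vehicle mouse 1 (median -1.01). Of the 5 transport genes, 4 were lower in each comparison, Pxmp2 being the one that did not pass. With arrays centred on their median in place of loess, 3 of the 6 core and 4 of the 6 auxiliary genes were lower in DEHP mouse 4 and none was higher, while the 5 transport genes split into 3 higher and 2 lower. The 9 import and assembly genes were split, with 4 higher and 4 lower in DEHP mouse 4, and 1 higher and 6 lower in vehicle mouse 1. For Eci2 the log2 difference was -2.42 between DEHP mouse 4 and DEHP mouse 1, and -1.78 between vehicle mouse 1 and the other two. For Acaa1a the differences were -1.83 and -1.82, for Phyh -1.61 and -1.34, and for Amacr -1.24 and -1.30. The size of the difference was not alike in the 2 comparisons for every member: Pex7 had -1.28 between the DEHP mice and -0.63 between the vehicle mice, while Abcd3 had -0.45 and -1.35, and Scp2 -0.46 and -1.08, the first value of each turning positive with median centring. For Acaa1b the values were -1.18 and -0.72, for Pxmp4 -1.02 and -0.74, and for Ech1 -0.90 and -0.54. Crot was lower in both comparisons, at -0.77 between the DEHP mice, whereas Crat did not pass between the DEHP mice and was higher in vehicle mouse 1, at 0.43.

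Some members ran the other way. Pex11a was higher by 0.96 in DEHP mouse 4 than in DEHP mouse 1, adjusted p = 6.3e-09 in limma's array-level test, while its vehicle difference of 0.07 did not pass. Acot8 was higher in both comparisons, by 0.48 and 0.62. Pex13 was higher by 0.39 in DEHP mouse 4 and lower in vehicle mouse 1, at -0.35. Catalase did not pass between the DEHP mice, at -0.05. It was lower in vehicle mouse 1, at -0.23, and this size depended on the background correction, with -0.43 at a normexp offset of 10 and -1.31 from Agilent's processed signals.

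**Figure D3:**
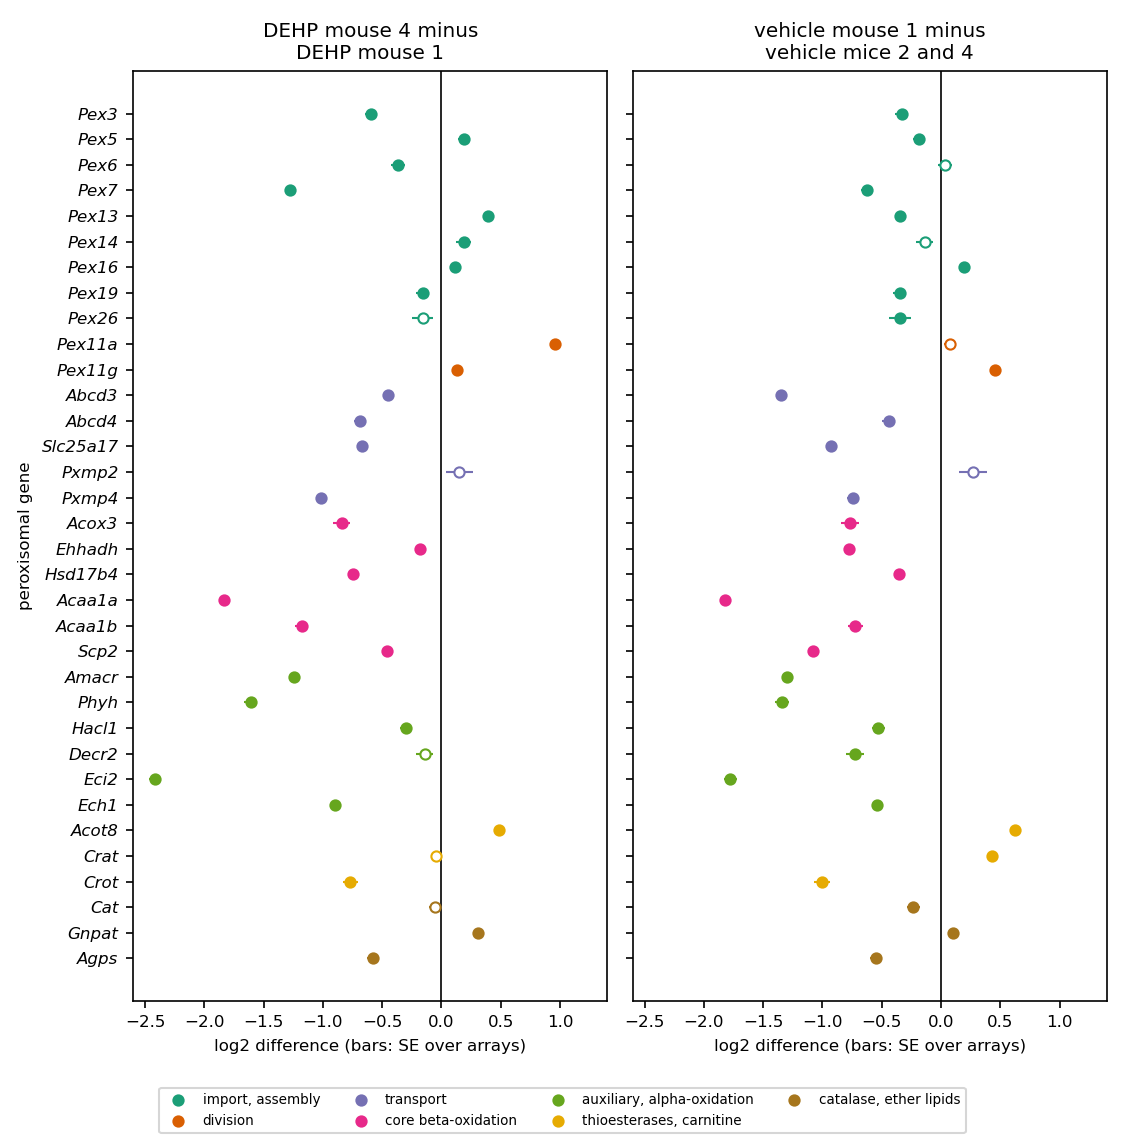
Left, the log2 difference between DEHP mouse 4 and DEHP mouse 1. Right, that between vehicle mouse 1 and the mean of vehicle mice 2 and 4. Each point is a measured peroxisomal gene, bars are standard errors over arrays, filled points passed an adjusted p of 0.05 and open ones did not. The core beta-oxidation and auxiliary genes lie left of 0 in both panels, and Pex11a is farthest right on the left, at 0.96.

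On single arrays, both dye orientations gave like ratios for the member that varied most. Eci2 in DEHP mouse 4 over vehicle mouse 4 had log2 ratios of -2.59 when the DEHP sample was labelled with Cy5 and -2.55 when it was labelled with Cy3. In DEHP mouse 1 over vehicle mouse 4 the ratios were -0.27 and -0.03. Over all genes, the dye-swapped arrays of a pair of mice correlated at r = 0.61 to 0.95.

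The split between DEHP mice depended on the normalization. With each array centred on its median in place of loess, the median of all genes shifted to 0.30 in DEHP mouse 4 minus DEHP mouse 1, against -0.05 with loess, and 54.7% of all genes were called higher and 16.3% lower. The members then split into 12 higher and 11 lower, with a median of 0.11, which is below that of all genes. Slc25a17 and Abcd3 were then called higher, at 0.31 and 0.43, and 8 more members changed sign, of which Crat was called, at 0.60, and Scp2 and Ehhadh, at 0.15 and 0.17, were not. Eci2, Acaa1a, Acaa1b, Phyh, Amacr and Pex7 kept their sign and their call with median centring, at smaller sizes of -1.25, -0.75, -0.71, -0.93, -0.59 and -0.56 in this order. In the vehicle comparison the same change left 3 higher and 25 lower, and the sign changed in 1 uncalled member, Pex6.

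Cell type markers moved with these differences. In DEHP mouse 4 minus DEHP mouse 1, 13 of 14 Leydig cell markers were lower (median -1.54) and 16 of 18 spermatid markers were higher (median 0.81). In vehicle mouse 1 minus vehicle mice 2 and 4, 13 of 14 Leydig cell markers were lower (median -0.99) and 15 of 18 spermatid markers were higher (median 0.76). Macrophage markers were also lower, 8 of 11 in the first comparison and 7 of 11 in the other, and Sertoli cell markers split 4 higher and 5 lower, then 6 higher and 5 lower. Endothelial markers were lower in 7 and 6 of 7 and peritubular myoid markers in 7 and 5 of 8, while spermatocyte markers were higher in 11 and 9 of 13, with none lower. These are counts of markers past limma's adjusted p of 0.05, with loess alone. Of all genes, 36.3% were higher and 41.1% lower in the first comparison, and 33.9% and 38.2% in the other. Over the 5 mice, the median member was at 0.09 and -0.25 in DEHP mice 1 and 4, against -0.23, 0.10 and 0.22 in vehicle mice 1, 2 and 4, so that the 2 mice with the lowest Leydig cell markers also had the lowest peroxisomal median. In the group comparison, Leydig cell markers had a median difference of -0.14, close to that of the members, and spermatid markers one of 0.67, with 16 of 18 above 0. Sertoli cell markers had a median difference of -0.28, with 11 of 14 below 0, and peritubular myoid markers one of -0.32, with 7 of 8 below 0. The part of cell composition in the peroxisomal differences was not tested.

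**Figure D4:**
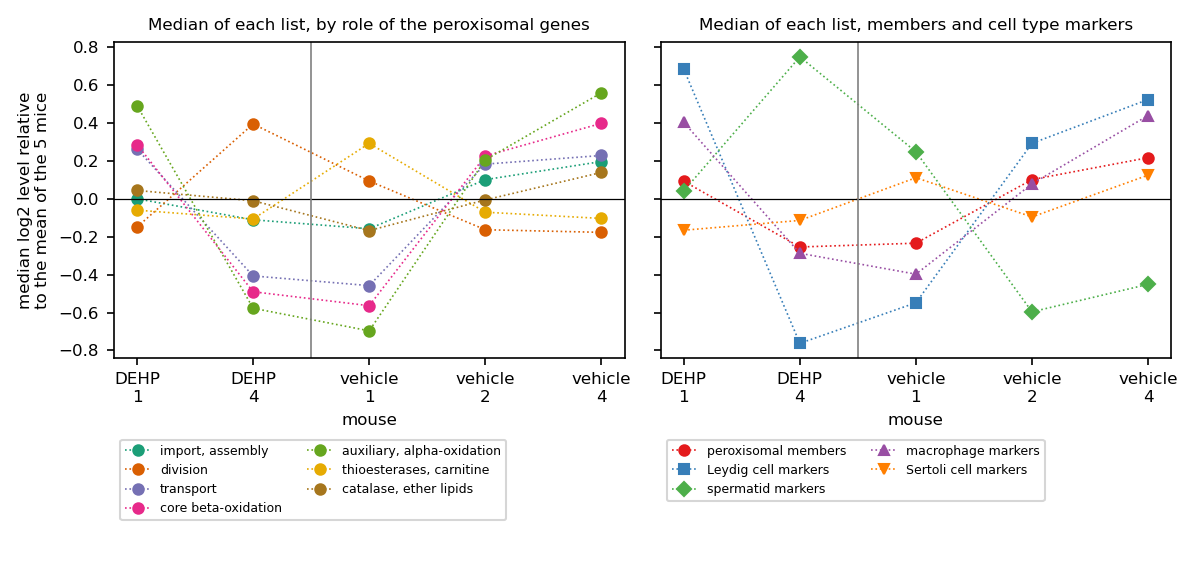
Points give the median log2 level, relative to the mean of the 5 mice, over the genes of each list in each mouse, with DEHP mice left of the vertical line and dotted lines only guiding the eye. Left, peroxisomal genes by role. Right, all measured members with marker lists of 4 cell types. DEHP mouse 4 and vehicle mouse 1 are lowest for Leydig cell markers, at -0.76 and -0.55, and for the oxidation genes.

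Promoters were searched for the sequence that PPAR alpha binds, a direct repeat of AGGTCA with 1 base between the copies, on both strands, in windows of 250 bases before to 50 after the start site (RefSeq, GRCm38.p6). Windows were found for 31 of the 39 members. None held the exact repeat, against 13 of 27025 genes (0.05%). At so rare a match, 31 members cannot show a difference from all genes, and inexact copies were not searched. A single AGGTCA occurred in 6 of 31 members (19.35%), a share near that of all genes (18.13%). The 250 bases before the start are shown for Scp2 and Cat, with the motif in capitals, 109 and 204 bases before the start.
Scp2, chr4:108118548-108118797, minus strand: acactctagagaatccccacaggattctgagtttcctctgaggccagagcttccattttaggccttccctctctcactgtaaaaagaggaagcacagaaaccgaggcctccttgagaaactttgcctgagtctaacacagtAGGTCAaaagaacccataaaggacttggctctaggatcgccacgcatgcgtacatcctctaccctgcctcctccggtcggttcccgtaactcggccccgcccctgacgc
Cat, chr2:103485154-103485403, minus strand: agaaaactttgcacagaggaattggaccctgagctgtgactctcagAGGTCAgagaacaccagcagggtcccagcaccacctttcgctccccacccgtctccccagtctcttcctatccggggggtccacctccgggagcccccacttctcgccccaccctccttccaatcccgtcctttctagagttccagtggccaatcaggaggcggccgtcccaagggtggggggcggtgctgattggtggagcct
A match is a run of letters in this window and no binding site, and the window leaves out any site farther away or within the gene.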

How the data were processed

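Spot intensity in both channels (mean signal and median background) was deposited as scanner output, not normalized between arrays; the file headers name Feature Extraction 9.5.1.1. Processed intensity and log10 red-to-green ratios are the software's own, per the file headers, and its deposited 0 or 1 marks, an other kind of value, give spots above background or outlying. The deposited value table holds the authors' log2 ratios for 13669 spots. Its rows were matched to scanner rows by number (r = 0.915 to 0.993 per array), it ran as DEHP over vehicle, its column medians were -0.06 to 0.00, and its filter and exact normalization are not given in the sources used here. The submitters' processing notes name limma.

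From there, R 4.3.3 with limma 3.58.1 applied normexp (offset 50) and loess, left out control and outlier-marked spots, and averaged spots of a probe. Least squares gave each probe a level per mouse, relative to the 5 mice, and a dye effect. A probe stayed in (21198 of 41174) if 2 or more mice had it well above background on 50% or more of their arrays, and the brightest stood for its gene. Genes were named through RefSeq accessions first. lmFit and eBayes compared the 2 groups on 5 mouse values, and single mice on 12 arrays, with Benjamini-Hochberg adjustment over all genes. The functions were tested on simulated data. Between 35.5% and 54.4% of spots per channel were above background, and the number of mice limits precision.

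The members, lists and tests were chosen with earlier results of these data known. Genes given with values per mouse were the 2 brightest of each role, the 4 of lowest p in each direction, the 4 of widest range, fixed PPAR alpha responders, and, from the wider list, the 2 of lowest p in each direction. Protein sequences were not used here. One probe sequence is not reported here.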

Additional observations from a re-analysis of the deposited data

How the results depend on the processing

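No member and no gene passed the DEHP minus vehicle test under any alternative that kept the mouse as the replicate. With the 12 arrays taken as independent, which counts the same 5 mice repeatedly, 2123 genes and 2 members passed, Hsd17b4 (adjusted p = 0.030) and Pex3 (adjusted p = 0.040). The members' median, -0.12, ran from -0.29 on slide 3 alone to 0.02 on slide 2 alone, and from -0.26 to 0.04 when each mouse in turn was left out. Leaving out a DEHP mouse leaves 1, which is then assumed to vary like the vehicle mice. Without DEHP mouse 4, 25 members lay above 0 and 9 below, and without DEHP mouse 1, 3 of 34 members had an unadjusted p under 0.05, as did 1053 of 15827 genes. Signs of single uncalled differences changed in up to 13 of 34 members, in the setting without DEHP mouse 4. Mouse numbers 1 and 4 occur in both groups but name separate animals, and the deviations of equal numbers correlated at -0.73 and -0.56 over genes. With the mouse number as a replicate block, 0 genes and 0 members passed. The members' median was -0.05, the same as without vehicle mouse 2. That mouse is the only animal of its number, so the block takes it out of the difference. Between DEHP mice 4 and 1, 23 to 30 members passed over the other settings, and between the vehicle mice 28 to 30. Counting the probe named Pex2 in the files as a member, an alternative chosen after seeing the data, gave 30 and 31. Only 26 members are in the authors' value table, whose median was -0.13.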

Other observations

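The wider list of other peroxisomal genes also differed between mice of a group. Of its 36 measured genes, 13 were higher and 18 lower in DEHP mouse 4 than in DEHP mouse 1 (median -0.12 on the log2 scale). Among all genes, 36.3% were higher and 41.1% lower. In vehicle mouse 1, 14 were higher and 19 lower than in vehicle mice 2 and 4 (median -0.56), where 33.9% of all genes were higher and 38.2% lower. The difference between the lists was not tested. The probe named Pex2 in the files, whose accession is that of Pex5l, was at -0.02 and 0.54 in DEHP mice 1 and 4, against 0.41, 0.41 and -1.35 in vehicle mice 1, 2 and 4. Vehicle mouse 4 alone stood apart for this probe, and the DEHP minus vehicle difference was 0.44 (SE 0.60, limma's adjusted p = 1.00).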
